A study of Mus musculus with 4 samples.

Results

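The ubiquitin-specific proteases (USPs), the largest family of mammalian deubiquitinases, were followed in mouse 2-cell embryos with and without extra Trim75. Members were taken by symbol, as every gene named Usp followed by a number and at most 1 letter. This rule used no measured value, but the family was chosen with earlier results of these data known. The table held 50 such genes among 27115, and the Usp17-like copies were outside the rule. RNA was sequenced in 2 libraries of embryos labelled Trim75 OE, which overexpressed Trim75, a tripartite motif protein of a family rich in E3 ubiquitin ligases, and in 2 libraries of embryos labelled WT, called control here. All 4 libraries were labelled as 2-cell embryos cultured in vitro and taken on day 2. How Trim75 was delivered, the mouse strain and the number of embryos per library are not given in the sources.

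Ubiquitin is a small protein that E3 ligases attach to other proteins, singly or as chains, and that marks them for the proteasome, for sorting at membranes or for signalling. USPs cut it off again with a catalytic cysteine, and each member is steered to its substrates by domains and partners outside the shared catalytic core. In the 2-cell embryo, where proteins and RNA stored in the egg are cleared while the embryo's own genome is switched on, both attachment and removal of ubiquitin take part in protein turnover and in the ubiquitylation of histones.

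Trim75 RNA was present in both groups and more abundant in the embryos labelled for it. It had 12091 and 10537 reads in Trim75 OE libraries, against 1773 and 1703 reads in controls, or 919 and 990.1 CPM (Trim75 OE) and 171 and 117 CPM (control). CPM values are counts scaled by library size and edgeR's TMM factors. Log2 fold changes are of Trim75 OE over control, and that of Trim75 was 2.73 ± 0.28 (SE). The adjusted p was 0.32 over the 16801 genes tested in edgeR's quasi-likelihood test, and 5.2e-14 in DESeq2, which adjusted over 16075 genes.

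Libraries held 13349188 and 11124411 counted reads in the Trim75 OE group, against 9965081 and 14599670 in the control group. At least 20 reads were counted for 15554 and 14982 genes in Trim75 OE libraries and for 14059 and 13371 genes in control libraries, so more genes were detected in Trim75 OE embryos at similar depth. Markers of the 2-cell embryo and oocyte were detected for 10 of 10 genes and summed to 12208 and 14798 CPM in Trim75 OE libraries, against 10469 and 12108 CPM in control libraries. Cumulus cell markers with a row in the table (6 of 8) summed to 0.608 and 12.9 CPM in Trim75 OE libraries, against 12.8 and 0.754 CPM in controls, and only Tnfaip6 reached 1 CPM. Sperm markers (2 of 5 in the table) summed to 5.86 and 3.66 CPM in Trim75 OE libraries, against 20.2 and 0 CPM in controls. Blastocyst markers (6 genes) summed to 26.2 and 9.11 CPM in Trim75 OE libraries, against 24.0 and 18.3 CPM in controls. Nothing in the labels says that replicates were separate embryo pools. The p-values therefore judge the difference between groups only against how far replicate libraries differ, and that spread may be technical. Control titles have the tag L2C and Trim75 OE titles do not, and the library numbers run in a separate block per group. A batch, or a difference in stage within the 2-cell period, along these lines cannot be told apart from the group.

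What the 50 members share beyond their names is the box around the catalytic cysteine. A search of each member's translated coding sequence (GENCODE M21, mm10) for this box gave 1 match in 50 of 50 members, at codons 41 to 1940 of coding sequences 366 to 3582 codons long. The pattern searched allowed variants of the box, among them a longer spacing and aspartate in place of the catalytic cysteine. A match in every member therefore describes the sequences and is no test of the family. The codon at the catalytic position read cysteine in 49 members, with 27 TGC and 22 TGT codons. In Usp39, a splicing factor known to lack deubiquitinase activity, the codon was GAC, which reads aspartate. The windows below are shown because they set closely related members side by side whose RNA levels differed in different ways between the groups, with Usp39 as the exception in sequence. Each runs 5′ to 3′ on the coding strand, with 24 bases before and 21 after the codon at the catalytic position, which is in capitals.
Usp51, chrX:153008372-153008419, plus strand: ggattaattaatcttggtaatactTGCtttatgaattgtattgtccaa
Usp22, chr11:61162941-61162988, minus strand: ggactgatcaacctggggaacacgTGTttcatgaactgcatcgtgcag
Usp13, chr3:32881429-32881476, plus strand: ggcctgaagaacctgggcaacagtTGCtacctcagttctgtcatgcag
Usp5, chr6:124822558-124822605, minus strand: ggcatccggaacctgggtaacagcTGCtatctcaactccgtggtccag
Usp8, chr2:126751077-126751124, plus strand: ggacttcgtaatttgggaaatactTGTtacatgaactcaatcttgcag
Usp50, chr2:126780456-126780503, minus strand: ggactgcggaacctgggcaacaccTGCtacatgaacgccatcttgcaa
Usp25, chr16:77050513-77050560, plus strand: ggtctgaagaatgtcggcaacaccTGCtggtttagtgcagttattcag
Usp28, chr9:49003935-49003982, plus strand: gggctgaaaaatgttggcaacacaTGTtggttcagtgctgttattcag
Usp39, chr6:72337702-72337749, minus strand: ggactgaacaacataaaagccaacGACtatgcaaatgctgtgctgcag
Over these 48 bases, Usp51 matched Usp22 at 33 and Usp27x at 40, Usp13 matched Usp5 at 35, Usp8 matched Usp50 at 37, and Usp25 matched Usp28 at 41. Over whole transcripts, 4 members (Usp1, Usp3, Usp7 and Usp9x) had a stretch of at least 100 bases that is at least 95% identical to another gene. For Usp1 this was Gm5841, with 97.9% identity over 2178 bases. Reads of these 4 genes may be shared with such copies, and their counts are uncertain.

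Ordered by FPKM, which divides reads by exon length and depth and so compares genes, the family ran between Usp16 at the top and Usp18 at the bottom. Usp16, which removes ubiquitin from histone H2A, ranked first with 112 and 106 FPKM in Trim75 OE libraries, against 90.0 and 74.0 FPKM in controls. Usp1, which acts on the DNA repair proteins FANCD2 and PCNA, ranked second with 97.8 and 68.0 FPKM (Trim75 OE) and 87.5 and 69.2 FPKM (control). Usp15, Usp28 and Usp38 followed, and the ranges over the 4 libraries of these leading 5 overlapped, so their order is not resolved. At the other end, Usp18, which in other tissues removes the ubiquitin-like protein ISG15 and is induced by interferon, had 0 and 0 reads in Trim75 OE libraries, against 0 and 2 reads in controls. Both groups are under the floor of 3 reads used here, so no fold is given. Usp35 and Usp40 were also too low in most libraries to be tested. Usp35 had 4 and 23 reads in Trim75 OE libraries, against 0 and 1 reads in controls, a ratio of summed reads, scaled by depth, of 28.3 with an exact 95% counting interval of 4.67 to 1159. Usp40 had 288 and 7 reads in Trim75 OE libraries, against 4 and 5 reads in controls. Only Trim75 OE replicate 1 was high for Usp40, and the other libraries had few reads.

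**Figure D1:**
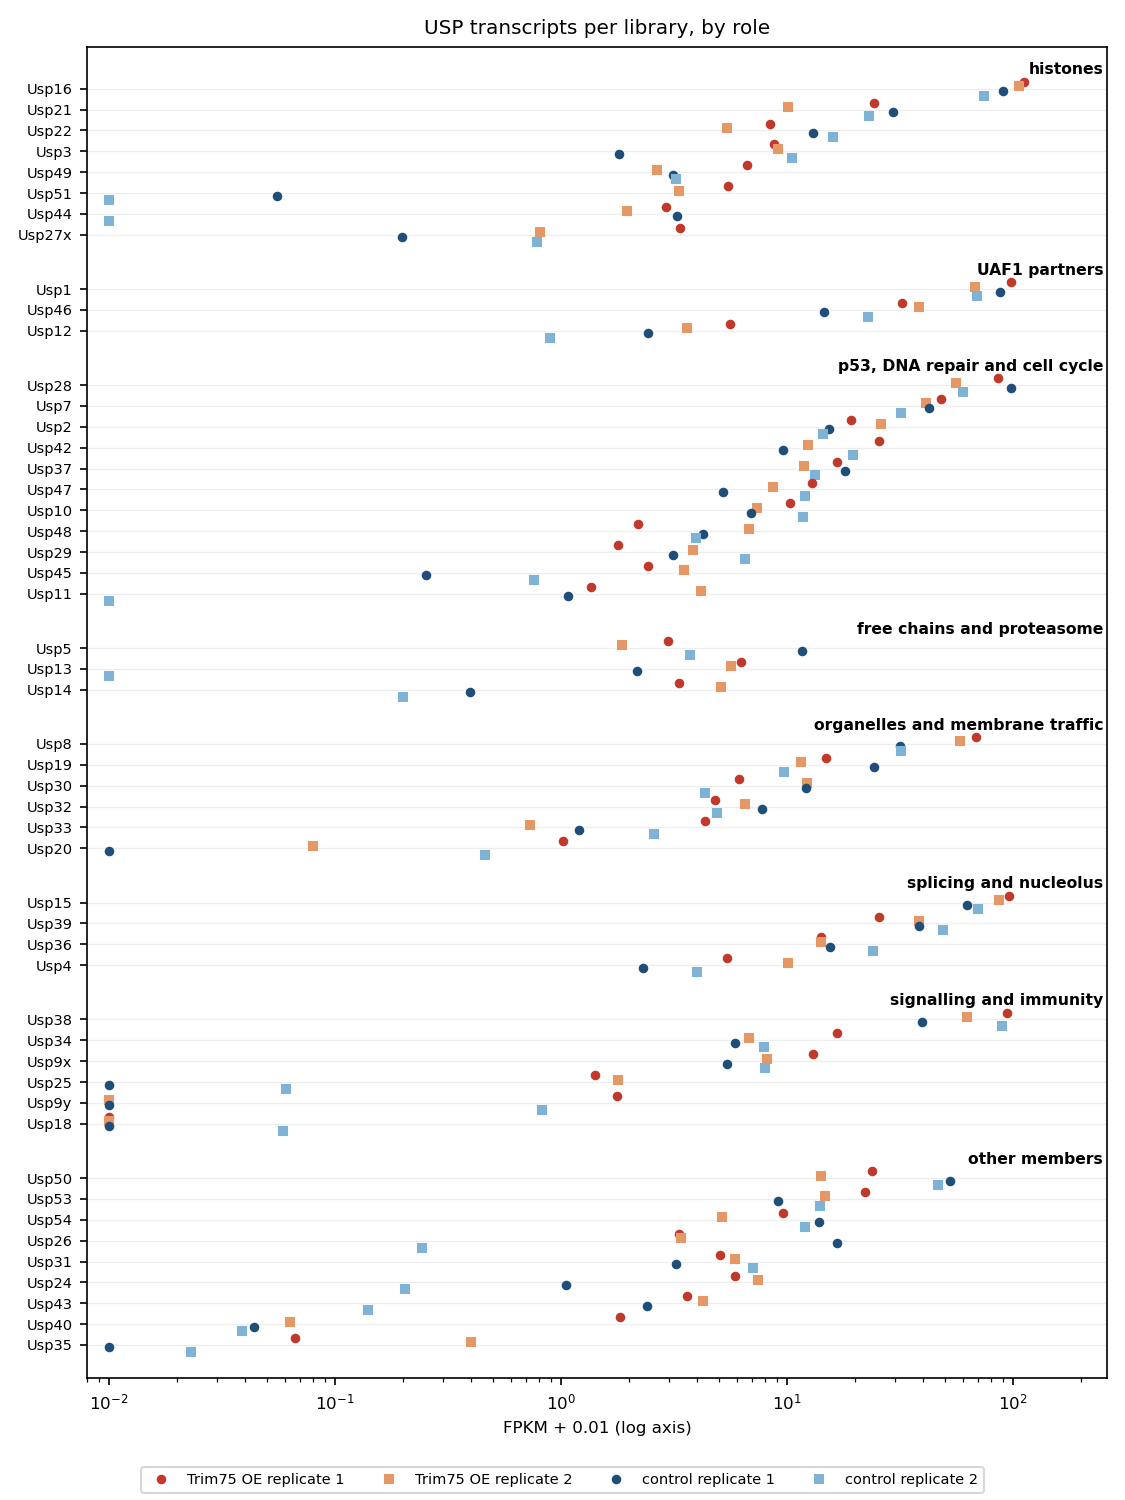
FPKM plus 0.01 (log axis) of the 50 USP genes in each of the 4 libraries, grouped by role, with Trim75 OE and control libraries in separate colours. Usp51, Usp25, Usp14, Usp24 and Usp45 have both Trim75 OE points well above both control points, and Usp50 has both below.

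Across the family, more members were higher than lower in Trim75 OE embryos, but none passed the adjusted threshold of the main test. Of 50 members, 47 passed the filter on low counts, 2 of them (Usp25 and Usp51) only through the Trim75 OE libraries, where they had to be the higher. With edgeR 0 of 47 members had an adjusted p under 0.05, as for 0% of all genes tested. At an unadjusted p under 0.05 there were 7 higher members (Usp8, Usp14, Usp15, Usp24, Usp25, Usp46 and Usp51), where 7.71% of all genes were called higher. There was 1 lower member (Usp50), where 3.53% of all genes were called lower. Of the 7, Usp25 and Usp51 could only be called higher, since the filter fixed their direction. The 7.71% likewise covers the 1030 tested genes that passed through the Trim75 OE libraries alone. A share without such genes was not computed. DESeq2 gave an adjusted p under 0.05 to 5 of the 48 members it assigned one, all higher (Usp8, Usp14, Usp24, Usp25 and Usp51), against 3.78% of all genes higher, and to 0 lower, against 1.73%. Without Trim75 OE replicate 1, or without Trim75 OE replicate 2, DESeq2 called 0 members, and 180 and 130 genes in all. With control replicate 1 or control replicate 2 left out, the control group rested on 1 library and DESeq2 called more genes in all than with every library. Counts of members from those fits are therefore not compared here. Usp8 was not among the calls of either, while Usp14, Usp24, Usp25 and Usp51 were.

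Both Trim75 OE libraries lay above both control libraries in 19 of the 47 members, 40.4%, where 24.0% of all genes tested did. They lay below both control libraries in 5 members, 10.6%, where 19.6% of all genes did. The fitted log2 fold change was above 0 in 33 members, with 51.3% of all genes as background, and below 0 in 14, with 48.7%. Its median was 0.48 (quartiles -0.07 and 1.20) over the 47 tested members and 0.03 (quartiles -0.63 and 0.77) over all genes. The 45 members that did not pass the filter through 1 group alone had a median of 0.47, against -0.02 for all 15507 such genes. Of these 45, 17 were apart higher and 5 apart lower, where 19.4% and 19.5% of the 15507 genes were. Summed over the family, reads came to 7879 and 6734 CPM in the Trim75 OE libraries, against 5549 and 5910 CPM in the control libraries. Usp15 and Usp16 made up 34.2% and 37.7% of that sum in Trim75 OE libraries and 32.8% and 31.4% in control libraries.

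The excess of the members' median over that of all genes was 0.45 on the log2 scale and shrank to 0.06 without control replicate 1, where the members' median was 0.43 and that of all genes 0.37. In DESeq2 without that library the members' median was 0.40 and that of all genes 0.42, a difference of -0.015. The values that follow are from edgeR. Without control replicate 2 it was 0.67, and without Trim75 OE replicate 1 or 2 it was 0.31 and 0.66. Detection differed in the same direction: 48 and 46 members had at least 20 reads in Trim75 OE libraries, against 41 and 40 in control libraries. Genes with 0 reads in 1 library and at least 50 in its partner made up 1.15% and 1.37% of all genes tested in Trim75 OE libraries, against 2.62% and 4.61% in control libraries. Among USP members these were Usp9y in Trim75 OE replicate 2, Usp9y and Usp20 in control replicate 1, and Usp11, Usp13 and Usp44 in control replicate 2. The part of these differences between libraries in the family's median was not tested. Since the embryos were sequenced in bulk, fewer cells expressing a gene and less of its RNA per cell cannot be told apart.

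Members with a mean over 100 CPM numbered 18, with a median log2 fold change of 0.36 and 7 apart higher and 2 apart lower, where all 2397 such genes had a median of -0.01 with 25.4% and 26.4% apart. Members between 10 and 100 CPM numbered 22, also with a median of 0.36, where all 7516 such genes had -0.01. Under 10 CPM there were 7 tested members, among them Usp25 and Usp51, whose direction the filter fixed. The other 5 had a median of 1.28 with 2 apart higher, where the 5644 genes under 10 CPM that did not pass through 1 group alone had a median of -0.06 with 14.3% apart higher. USP genes have long transcripts, with a median exon length of 7599 bases against 3313 for all genes tested, and the 4244 genes within the members' length quartiles had a median of 0.10, with 25.5% apart higher and 16.1% apart lower.

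**Figure D2:**
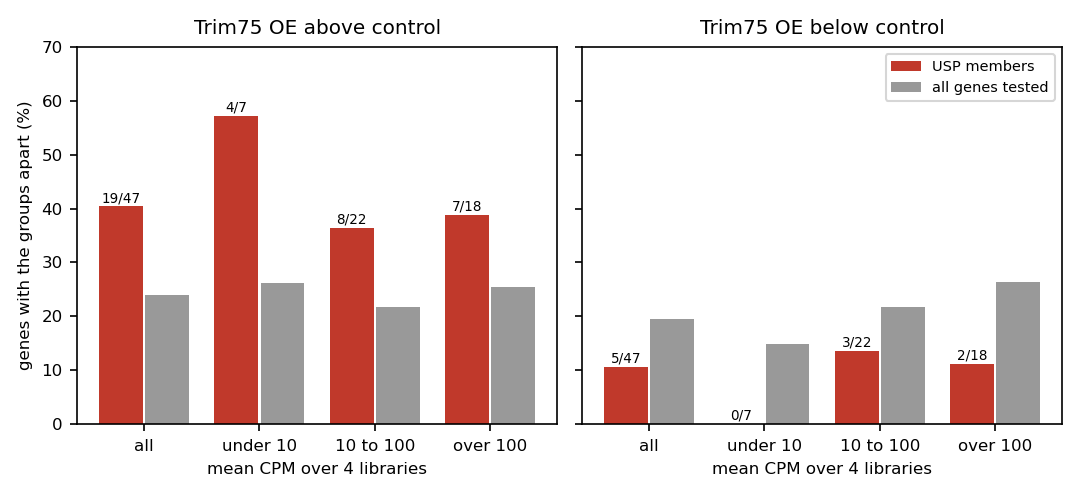
Percentage of genes whose Trim75 OE libraries both lie above (left) or both below (right) the control libraries, for USP members beside all genes tested, overall and by mean CPM. The class under 10 CPM holds Usp25 and Usp51, which passed the filter through the Trim75 OE libraries alone. The USP bars exceed those of all genes in every class for higher values (40.4% against 24.0% overall) and lie under them for lower values (10.6% against 19.6%).

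**Figure D3:**
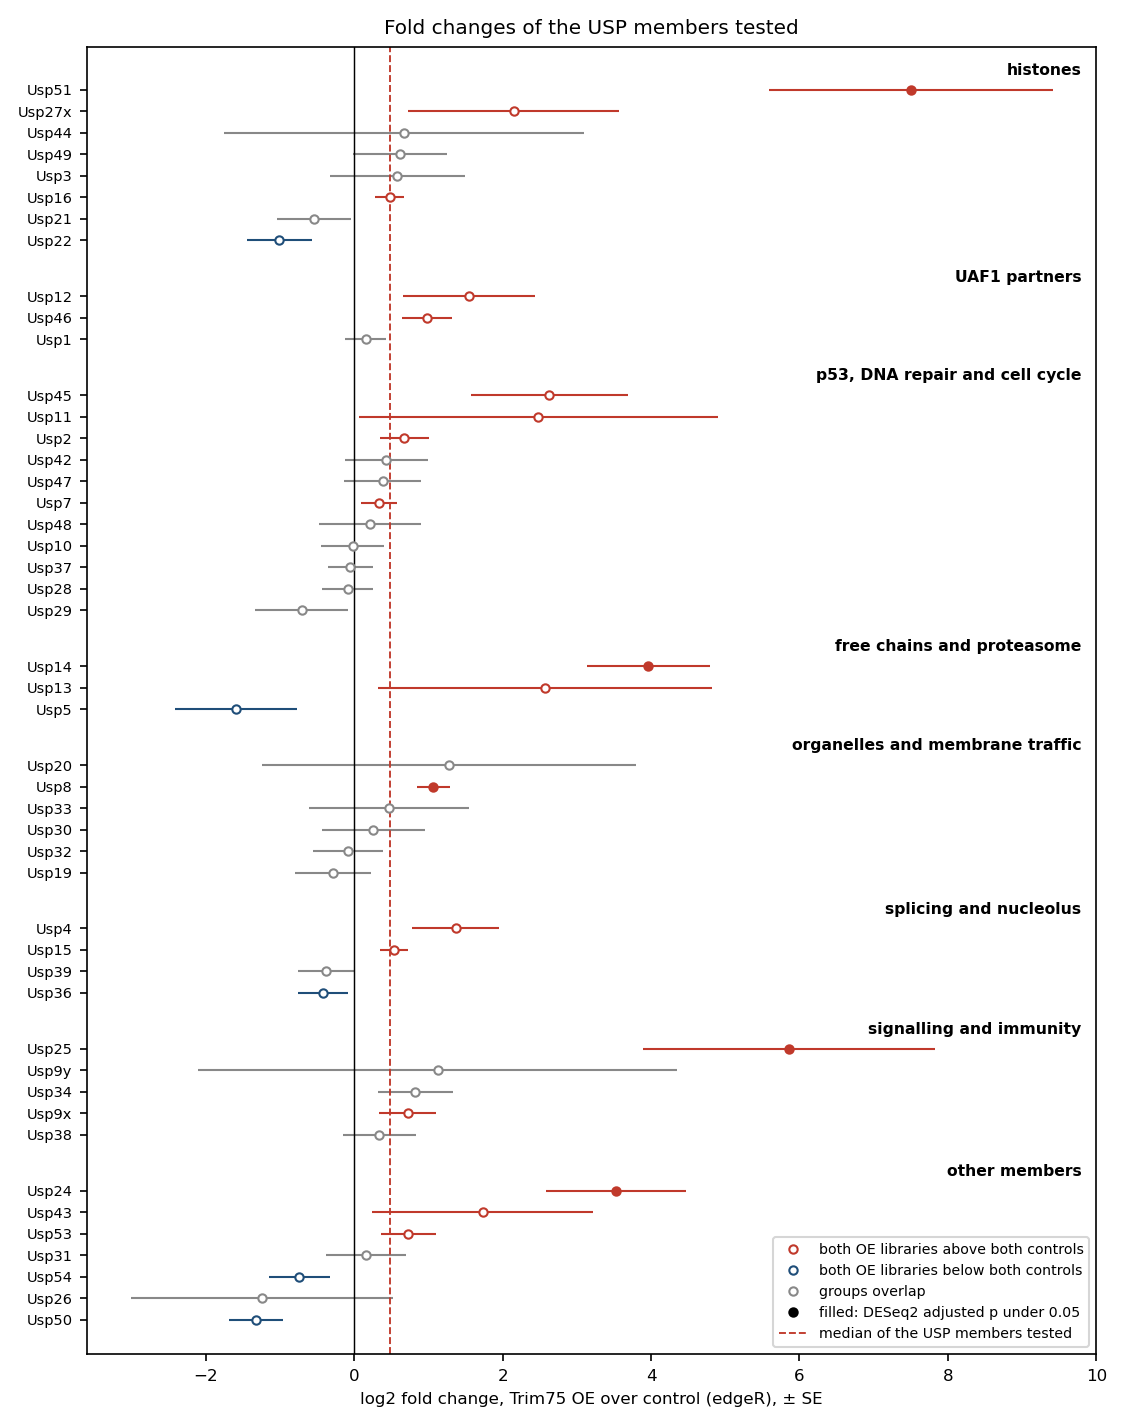
Log2 fold change (Trim75 OE over control, edgeR) with its SE for the 47 tested members, in red where both Trim75 OE libraries are above both controls, in blue where both are below and in grey where the groups overlap; filled points have a DESeq2 adjusted p under 0.05. The dashed line marks the members' median of 0.48, and the SE bars are widest for members with a library at 0 reads, such as Usp9y and Usp20.

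Among enzymes that act on free ubiquitin chains and at the proteasome, Usp13 and Usp14 had higher values and Usp5 lower values in both Trim75 OE libraries. Of all genes tested, 24.0% were apart higher and 19.6% apart lower. Usp14, which sits on the proteasome and trims ubiquitin from its substrates, had 370 and 474 reads in Trim75 OE libraries, against 32 and 23 reads in controls, or 28.1 and 44.5 CPM (Trim75 OE) and 3.09 and 1.58 CPM (control). Both control libraries were far under both Trim75 OE libraries. The log2 fold change was 3.96 ± 0.83 (SE), with an adjusted p of 0.32 in edgeR and 0.00017 in DESeq2. Usp14 shares 2169 exonic bases with Thoc1 on the opposite strand, and whether reads were counted by strand is not given. Thoc1 itself measured 56.0 and 49.9 CPM in Trim75 OE libraries, against 36.4 and 67.1 CPM in controls, with overlapping groups. Usp5, which takes apart unanchored chains, measured 13.8 and 8.93 CPM in Trim75 OE libraries, against 51.8 and 17.2 CPM in controls. It was lower in both Trim75 OE libraries, at a log2 fold change of -1.60 ± 0.82 (SE) and an adjusted p of 0.62 in edgeR. Its close relative Usp13 measured 48.3 and 44.9 CPM in Trim75 OE libraries, against 15.7 and 0 CPM in controls. With control replicate 2 at 0, its log2 fold change of 2.57 ± 2.25 (SE) had an error nearly as large as itself. Usp13 thus made up 68.0% and 75.4% of the FPKM of the pair in Trim75 OE libraries, against 15.6% and 0% in control libraries.

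Among the histone deubiquitinases, 7 tested members other than Usp51 had a median log2 fold change of 0.58. Of these, 2 were apart higher and 1 apart lower, where 19.4% and 19.5% of genes that did not pass the filter through 1 group alone were. Usp16 measured 1071 and 1044 CPM in Trim75 OE libraries, against 818 and 701 CPM in controls. The groups did not overlap, and the log2 fold change was small, 0.48 ± 0.19 (SE), with an adjusted p of 0.49 in edgeR. Usp22, the subunit of the SAGA coactivator that removes ubiquitin from histone H2B, measured 41.7 and 27.5 CPM in Trim75 OE libraries, against 61.1 and 78.2 CPM in controls. Both Trim75 OE libraries were the lower, at a log2 fold change of -1.01 ± 0.44 (SE) and an adjusted p of 0.53 in edgeR. Usp51, one of the enzymes that in human cells can take the place of USP22 on its adaptors, was close to absent from control embryos, with 161 and 81 reads in Trim75 OE libraries, against 1 and 0 reads in controls. Summed over the libraries and scaled by depth, its ratio was 254 with an exact 95% interval of 45.1 to 10064 that covers counting error only. The adjusted p of Usp51 was 0.32 in edgeR and 0.0056 in DESeq2. By FPKM, Usp51 made up 39.4% and 38.0% of the sum of Usp51 and Usp22 in Trim75 OE libraries, against 0.349% and 0% in control libraries. Usp27x, the other such enzyme and chosen once its values were known, measured 14.5 and 3.57 CPM in Trim75 OE libraries, against 0.772 and 3.29 CPM in controls. Its second Trim75 OE library was barely above the second control library. Usp21, which acts on H2A, measured 117 and 50.2 CPM in Trim75 OE libraries, against 135 and 109.9 CPM in controls. Its groups overlapped. Usp3, which also acts on H2A, measured 60.7 and 65.1 CPM in Trim75 OE libraries, against 11.9 and 72.1 CPM in controls, with control replicate 1 apart from the other 3 libraries. Usp49, which acts on H2B, measured 57.8 and 23.8 CPM in Trim75 OE libraries, against 25.7 and 27.6 CPM in controls, also with overlap. Usp44, an H2B enzyme of the mitotic checkpoint, measured 11.9 and 8.18 CPM in Trim75 OE libraries, against 12.6 and 0 CPM in controls, and control replicate 2 had no reads.

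Usp8 and Usp50 lie on opposite strands of chromosome 2 and differed in opposite directions. Usp8 (chr2:126707328-126759297, plus strand), which works at endosomes and rescues receptors from degradation, averaged 273 ± 25.1 CPM in Trim75 OE embryos and 130.5 ± 5.51 CPM in control embryos (SD, n = 2 each). Its libraries were at 291 and 256 CPM in Trim75 OE libraries, against 127 and 134 CPM in controls, with little spread inside each group. The log2 fold change was 1.07 ± 0.23 (SE), with an unadjusted p of 0.0077 and an adjusted p of 0.32 in edgeR, and an adjusted p of 0.017 in DESeq2. Usp50 (chr2:126709096-126783470, minus strand), a relative of Usp8 with a coding sequence of 390 codons against 1080, averaged 60.1 ± 20.5 CPM in Trim75 OE embryos and 151 ± 8.62 CPM in control embryos (SD, n = 2 each). It measured 74.6 and 45.6 CPM in Trim75 OE libraries, against 157 and 145 CPM in controls. Its log2 fold change was -1.33 ± 0.36 (SE), with an unadjusted p of 0.019 and an adjusted p of 0.33 in edgeR and 0.052 in DESeq2. By FPKM, Usp8 made up 74.3% and 80.6% of the pair in Trim75 OE libraries and 37.3% and 40.7% in control libraries. The more abundant gene of the pair was thus Usp8 in the Trim75 OE group and Usp50 in the control group. Their spans overlap, but no exonic base of one lies in an exon of the other. Usp19, anchored in the endoplasmic reticulum, measured 106 and 84.9 CPM in Trim75 OE libraries, against 165 and 68.3 CPM in controls. Its groups overlapped, as did those of the remaining organelle members. Usp30, of the outer mitochondrial membrane, stood at 37.8 and 77.8 CPM (Trim75 OE) and 70.6 and 26.3 CPM (control). Usp32, of the Golgi and endosomes, stood at 37.2 and 52.0 CPM (Trim75 OE) and 56.9 and 37.7 CPM (control). The related Usp33 and Usp20 stood at 42.5 and 7.24 CPM (Trim75 OE) and 11.1 and 24.8 CPM (control) for Usp33, and at 9.20 and 0.658 CPM (Trim75 OE) and 0 and 4.05 CPM (control) for Usp20. In each of these 4 the log2 fold change was smaller than its SE.

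The promoters of this pair are shown because the genes start at opposite ends of the shared span and their RNA differed in opposite directions. Each is the RefSeq window (GRCm38.p6, the assembly of mm10) of 300 bases that ends shortly after the start taken from RefSeq. It is written 5′ to 3′ on the strand of the gene, with matches to the motifs searched in capitals.
Usp8, chr2:126707078-126707377, plus strand: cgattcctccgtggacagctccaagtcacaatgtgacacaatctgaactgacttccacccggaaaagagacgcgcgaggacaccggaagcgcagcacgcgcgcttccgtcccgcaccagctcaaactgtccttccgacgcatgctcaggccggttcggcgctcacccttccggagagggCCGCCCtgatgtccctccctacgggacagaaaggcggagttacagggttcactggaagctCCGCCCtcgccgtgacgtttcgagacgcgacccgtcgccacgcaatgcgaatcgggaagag
Usp50, chr2:126783411-126783710, minus strand: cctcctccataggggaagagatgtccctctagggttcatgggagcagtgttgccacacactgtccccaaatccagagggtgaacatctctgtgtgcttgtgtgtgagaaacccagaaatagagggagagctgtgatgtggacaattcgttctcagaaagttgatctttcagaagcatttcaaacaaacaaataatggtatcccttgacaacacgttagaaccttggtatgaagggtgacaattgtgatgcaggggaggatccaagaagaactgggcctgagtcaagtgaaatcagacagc
Usp24 and Usp25 follow, as examples of members with few reads in control embryos. The Usp25 window lies wholly downstream of the start that GENCODE gives for this gene, chr16:77013706.
Usp24, chr4:106315963-106316262, plus strand: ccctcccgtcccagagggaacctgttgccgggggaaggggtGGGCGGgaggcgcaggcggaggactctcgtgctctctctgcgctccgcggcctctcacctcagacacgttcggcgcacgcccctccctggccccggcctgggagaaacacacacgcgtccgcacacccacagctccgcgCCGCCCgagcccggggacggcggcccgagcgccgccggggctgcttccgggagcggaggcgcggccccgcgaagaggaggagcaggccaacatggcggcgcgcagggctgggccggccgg
Usp25, chr16:77013819-77014118, plus strand: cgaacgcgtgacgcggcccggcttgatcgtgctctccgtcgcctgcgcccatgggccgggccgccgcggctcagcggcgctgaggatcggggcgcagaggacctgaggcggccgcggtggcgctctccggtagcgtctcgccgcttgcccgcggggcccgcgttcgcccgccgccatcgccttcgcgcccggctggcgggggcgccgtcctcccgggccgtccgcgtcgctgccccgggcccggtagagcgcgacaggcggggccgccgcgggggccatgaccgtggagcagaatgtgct
The Usp8 window held 34 CpG dinucleotides, that of Usp24 39 and that of Usp25 54, whereas that of Usp50 held 2 and none of the motifs searched. These windows are examples. That of Usp51, also higher in Trim75 OE, held 6, and that of Usp36, lower in both Trim75 OE libraries, held 33. Whether CpG content goes with the direction of the difference was not tested. The motifs, on both strands, were the TATA box TATAAA, the CCAAT box CCAAT and the GC box GGGCGG, with a longer motif of the 2-cell factor Dux beside them. Each was searched by itself, whether or not it overlapped another. A GC box was in the windows of 26 of the 38 members with an entry, 68.4%, and in 35.7% of all 32851 promoters. A TATA box was in 2 of 38, 5.26%, and in 13.6% of all. A CCAAT box was in 10 of 38, 26.3%, and in 37.4% of all, and the Dux motif was in 0 of 38 and in 0.033% of all. The median member window held 27.5 CpG dinucleotides, against 7 in all promoters. A match describes letters in the window and not binding.

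**Figure D4:**
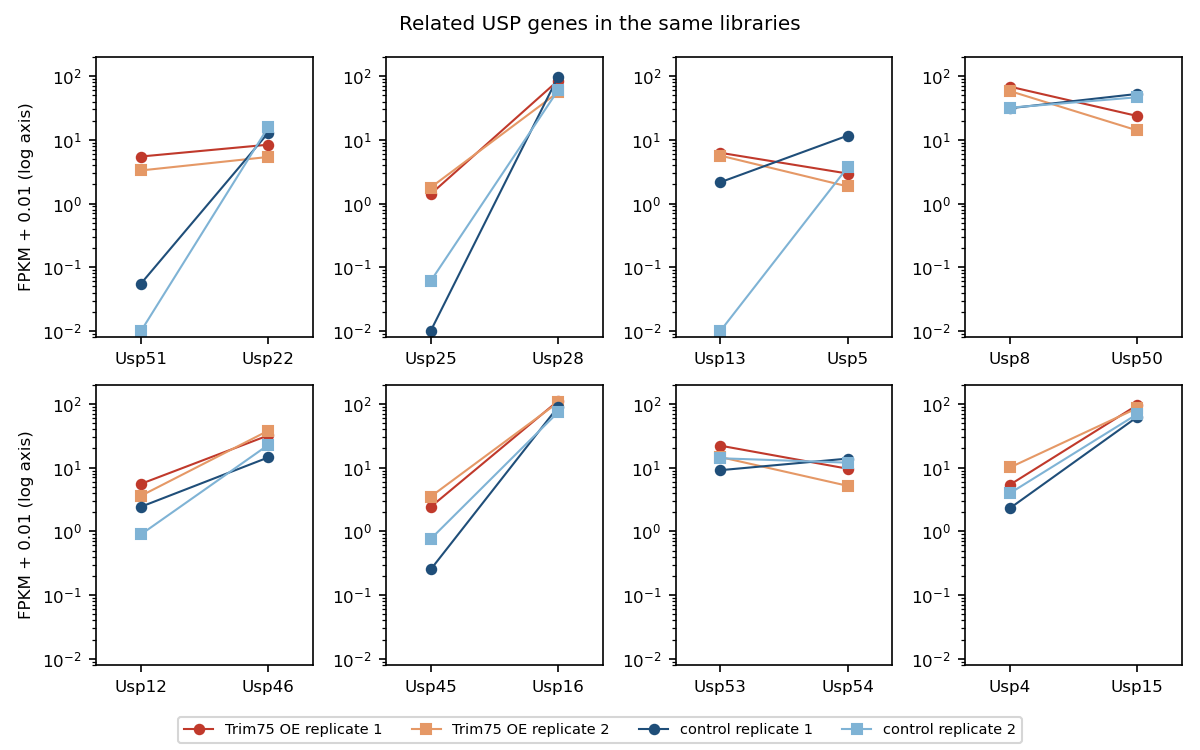
FPKM in each library for 8 pairs of related members. Left and right in each panel are the members of the pair, and a coloured line joins the values of each library. Usp8 lies above Usp50 in both Trim75 OE libraries and below it in both control libraries. Usp13 lies above Usp5 in the Trim75 OE libraries alone, and Usp51 lies below Usp22 in all 4 libraries.

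Usp24, a very large member known to act on proteins of the DNA damage response, was the most abundant of the members called by DESeq2 that were low in control embryos. It had 970 and 1024 reads in Trim75 OE libraries, against 128 and 35 reads in controls, or 73.8 and 96.2 CPM (Trim75 OE) and 12.4 and 2.40 CPM (control). Both Trim75 OE libraries stood well clear of control replicate 1, the higher of the controls. For Usp24 the log2 fold change was 3.53 ± 0.95 (SE), with an adjusted p of 0.32 in edgeR and 0.0026 in DESeq2. Usp53, a cell junction protein in epithelia, measured 282 and 193 CPM in Trim75 OE libraries, against 110.1 and 176 CPM in controls, at a log2 fold change of 0.73 ± 0.37 (SE). Usp54, its relative and also chosen once its values were known, measured 88.4 and 49.0 CPM in Trim75 OE libraries, against 121 and 109 CPM in controls, at a log2 fold change of -0.74 ± 0.41 (SE). The pair thus differed in opposite directions, without overlap. Neither passed a test, with an adjusted p of 0.61 for Usp53 and 0.65 for Usp54 in edgeR. Usp43 measured 17.3 and 21.0 CPM in Trim75 OE libraries, against 10.9 and 0.617 CPM in controls. Control replicate 2 stood apart from the other 3 libraries, and the log2 fold change was 1.73 ± 1.49 (SE). Usp26, an X-linked gene of the male germ line, had overlapping groups at 13.8 and 14.6 CPM (Trim75 OE) and 66.3 and 0.960 CPM (control). Usp31 also overlapped, at 52.9 and 63.5 CPM (Trim75 OE) and 31.7 and 72.5 CPM (control).

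In the signalling and immunity group, 4 members were tested besides Usp25, whose direction the filter fixed. They had a median log2 fold change of 0.77, and 1 was apart higher, where 19.4% of genes that did not pass through 1 group alone were. Usp25, which restrains signalling from cytokine receptors, had 101 and 107 reads in Trim75 OE libraries, against 0 and 4 reads in controls. Control embryos thus held almost none, and edgeR fitted a log2 fold change of 5.86 ± 1.97 (SE) with an adjusted p of 0.40, against 0.034 in DESeq2. Its relative Usp28, of the DNA damage response, was far more abundant in every library, at 85.4 and 55.7 FPKM in Trim75 OE libraries, against 97.8 and 60.3 FPKM in controls. Usp25 reached 1.40 and 1.78 FPKM (Trim75 OE) and 0 and 0.0506 FPKM (control). The log2 fold change of Usp28 was -0.09 ± 0.35 (SE), and its sign turned when Trim75 OE replicate 2 or control replicate 1 was left out. Usp38, which acts in antiviral signalling, measured 546 and 376 CPM in Trim75 OE libraries, against 217 and 513 CPM in controls. Usp34, a regulator of Wnt signalling through axin, measured 309.9 and 130.2 CPM in Trim75 OE libraries, against 104 and 145 CPM in controls. The groups overlapped in both. Usp9x, a large X-linked enzyme of TGF-beta signalling and cell adhesion, chosen once its values were known, measured 199 and 128 CPM in Trim75 OE libraries, against 78.4 and 120.3 CPM in controls, at a log2 fold change of 0.72 ± 0.39 (SE). Usp9y, its Y-linked copy, had 189 and 0 reads in Trim75 OE libraries, against 0 and 96 reads in controls, and so was absent from 1 library of each group.

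The enzymes that work with the cofactor UAF1, encoded by Wdr48, had 3 tested members, each with a log2 fold change above 0, where 51.3% of all genes had one. Usp46 measured 256 and 312 CPM in Trim75 OE libraries, against 109 and 179 CPM in controls. This gave a log2 fold change of 0.98 ± 0.34 (SE), with an unadjusted p of 0.040 and an adjusted p of 0.41 in edgeR. Its close relative Usp12 measured 26.2 and 17.5 CPM in Trim75 OE libraries, against 10.8 and 4.11 CPM in controls. Here the log2 fold change was 1.55 ± 0.89 (SE), with an adjusted p of 0.67 in edgeR. Both were apart higher, while Usp1, at 371 and 265 CPM (Trim75 OE) and 314 and 259 CPM (control), overlapped. Of all genes tested, 24.0% were apart higher. Wdr48 itself measured 30.8 and 93.8 CPM in Trim75 OE libraries, against 57.2 and 39.0 CPM in controls, with overlapping groups.

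Of 11 members linked to p53, DNA repair and the cell cycle, 4 were apart higher and 0 apart lower, with a median of 0.33. Of all genes tested, 24.0% were apart higher and 19.6% apart lower. Usp7, which keeps both Mdm2 and p53 from degradation, measured 378 and 334 CPM in Trim75 OE libraries, against 316 and 249 CPM in controls. The groups lay close together without overlap, at a log2 fold change of 0.33 ± 0.24 (SE), with an adjusted p of 0.78 in edgeR. Usp45, which acts on the repair nuclease subunit ERCC1, measured 15.2 and 22.7 CPM in Trim75 OE libraries, against 1.45 and 4.66 CPM in controls. Low in both controls, it had a log2 fold change of 2.63 ± 1.06 (SE) and an adjusted p of 0.49 in edgeR. The remaining members apart were chosen once their values were known. They were Usp2, at 93.4 and 131 CPM (Trim75 OE) and 71.2 and 69.5 CPM (control), and Usp11, at 6.46 and 20.5 CPM (Trim75 OE) and 4.82 and 0 CPM (control). In the other 6 members of the group, besides Usp28, Trim75 OE and control libraries overlapped. Usp10, which acts on cytoplasmic p53, stood at 99.8 and 73.2 CPM (Trim75 OE) and 63.5 and 112 CPM (control), and Usp42, another p53 enzyme, at 162 and 80.4 CPM (Trim75 OE) and 57.5 and 122 CPM (control). Usp37, which acts on cyclin A, was at 187 and 138 CPM (Trim75 OE) and 191 and 147 CPM (control), and Usp47, which acts on a DNA repair polymerase, at 180.1 and 124 CPM (Trim75 OE) and 68.6 and 164 CPM (control). Usp48 reached 21.5 and 68.2 CPM (Trim75 OE) and 39.3 and 38.3 CPM (control). Usp29, an imprinted gene that shares 2582 exonic bases with Zim3 on the opposite strand, reached 32.5 and 72.5 CPM (Trim75 OE) and 54.0 and 118 CPM (control), so both groups spread widely.

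In the group that acts in splicing and the nucleolus, 4 tested members had a median log2 fold change of 0.07. Of these, 2 were apart higher and 1 apart lower, where 24.0% and 19.6% of all genes tested were. Usp15 and Usp4, close relatives that bind the splicing factor Sart3, were the 2 apart higher. Usp15 measured 1621 and 1496 CPM in Trim75 OE libraries, against 1001 and 1155 CPM in controls. Its log2 fold change of 0.53 ± 0.19 (SE) had an unadjusted p of 0.046 and an adjusted p of 0.43 in edgeR. Usp4 measured 47.2 and 90.8 CPM in Trim75 OE libraries, against 19.1 and 34.3 CPM in controls, at a log2 fold change of 1.37 ± 0.58 (SE) and an adjusted p of 0.52 in edgeR. Usp36, the nucleolar member, measured 110.3 and 113 CPM in Trim75 OE libraries, against 114 and 185 CPM in controls, at a log2 fold change of -0.42 ± 0.34 (SE). The first control library stood barely above the Trim75 OE libraries. Usp39, shown above for its sequence, measured 63.1 and 97.5 CPM in Trim75 OE libraries, against 89.9 and 119.9 CPM in controls, with overlapping groups.

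The other genes of deubiquitinase families, mostly of other folds, had a median close to that of the USP members. They were listed by family and not by activity on ubiquitin. Pan2, Uspl1 and Cops5, for which this activity was not checked, are among the genes apart higher. Of 36 such genes with counts, 32 were tested. They had a median log2 fold change of 0.45, with 11 apart higher (34.4%, against 24.0% of all genes) and 4 apart lower (12.5%, against 19.6%). With edgeR 0 passed the adjusted threshold. DESeq2 called 1, Otub1, an inhibitor of ubiquitin-conjugating enzymes that also cuts chains. Otub1 measured 12.9 and 15.1 CPM in Trim75 OE libraries, against 40.4 and 68.3 CPM in controls. Both Trim75 OE libraries were lower, at a log2 fold change of -1.96 ± 0.55 (SE) and an adjusted p of 0.033 in DESeq2. At an unadjusted p under 0.05 edgeR had 2 higher (Otub2 and Zranb1) and 2 lower (Otub1 and Josd2), 6.25% each, where 7.71% of all genes were higher and 3.53% lower. No test of the difference between the lists was run.

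Cofactors of USP enzymes had a median log2 fold change of -0.22 over 8 tested genes, with 1 apart higher (Eny2) and 3 apart lower (Atxn7, G3bp1 and Wdr20), where 24.0% and 19.6% of all genes were. Of these cofactors, 0 passed the adjusted threshold in edgeR or in DESeq2, and 0 had an unadjusted p under 0.05 in edgeR. Atxn7, the adaptor that anchors Usp22 in SAGA, measured 30.6 and 48.6 CPM in Trim75 OE libraries, against 58.8 and 166 CPM in controls, and was lower in both Trim75 OE libraries, as Usp22 was. As for Usp14, counts are uncertain for the 20 USP members that share exonic bases with another annotated gene, 12 of which share them with a gene that has counts.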

How the data were processed

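RNA was measured in 4 libraries, 2 Trim75 OE and 2 control. Per the labels' protocols, libraries were made with a transposase-based kit (TruePrep V2). The tools, per the submitters' processing notes, were HISAT2, featureCounts, FastQC and Trim Galore, on mm10. Their versions, the annotation release and the settings for strand and multi-mapped reads are not given. Per the file headers, the authors' table holds unnormalized read counts and FPKM values for each gene in each library. Depth ranged from 9965081 to 14599670 reads; no molecular identifiers are described, so intervals cover counting error only.

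The main test was edgeR (4.0.16, in R 4.3.3): filterByExpr, TMM factors, glmQLFit and glmQLFTest on the group over 16801 genes, with p-values adjusted by Benjamini-Hochberg and called under 0.05. The SE of a log2 fold change is its size divided by the root of its quasi-F. DESeq2 (1.42.0) on all genes and limma (3.58.1) were alternatives, with other scaling, filters, a replicate block and each library left out; DESeq2 with each library left out was added after the data were seen. The biological coefficient of variation was 0.908. With 2 libraries a group, an exact permutation test of single values cannot go below 0.333, so none is given.

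Members and lists were chosen with earlier results of these data known. Named genes were Trim75, members called by either tool, the 2 most abundant per role, members apart with at least 10 CPM and a log2 fold change of at least 1, members at 0 reads in a whole group, and other deubiquitinases called by either tool. Some genes of the planned list of partners are not reported here. Further genes named were chosen after their values were known. Positions come from GENCODE M21, copies from blastn (2.17.0), promoters from RefSeq. The box around the catalytic cysteine was searched in translated GENCODE coding sequences in place of a protein table. Python (3.11.15) and matplotlib (3.10.9) drew the figures. The single-cell data named in the design text were not analysed here.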

Additional observations from a re-analysis of the deposited data

How the results depend on the processing

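No USP member, no other deubiquitinase and no gene of the table passed the edgeR or limma threshold under any alternative; DESeq2 called 5 USP members and 1 other deubiquitinase, and gave Trim75 a log2 fold change of 2.73 with an adjusted p of 5.2e-14. With 1 library left out (the lone library of a group being assumed to vary like the other group), DESeq2 called 0 to 9 members (7 without control replicate 2), an unadjusted p under 0.05 in edgeR was reached by 2 to 14 (2.13% to 15.9% of all genes), and the members' median log2 fold change ranged from 0.24 to 0.87. DESeq2 also called fewer genes in all without a Trim75 OE library, and more without a control library, than with every library. Its counts of members from these fits are therefore not read as a property of the family. With 1 library left out, the groups, of 1 library against 2, were apart higher in 22 to 29 members (45.8% to 60.4%, against 35.8% to 39.1% of all genes). They were apart lower in 9 to 12 (18.8% to 24.5%, against 27.5% to 35.0%). The median of the other deubiquitinases was 0.39 with no scaling factors, 0.49 with voom, 0.37 on log2(FPKM + 1) and 0.32 to 0.75 with 1 library left out. With 1 library left out, fold changes of single genes were followed only for the genes named by rule. Among these, signs turned for Usp1 (-0.13 to 0.38), Usp28 (-0.43 to 0.25), Usp19 (-0.79 to 0.47) and Usp38 (-0.17 to 1.09). The cause was not tested. Signs of the other members in these fits were not followed and may turn as well. The spread between libraries of 1 group limits what can be called.

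With the replicate number as a block, the members' median was 0.49 and that of the other deubiquitinases 0.55, and 0 genes were called. Deviations of same-numbered libraries correlated at 0.013 over 16801 genes, so the numbers are not taken to pair the libraries.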
